A study of Mus musculus with 12 samples.

Results

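The comparison described here is dexmedetomidine against saline in prelimbic cortex of mice trained to fear a tone, made over all expressed genes. Its members are the 6 libraries, of 12 in the series, whose titles name prelimbic (PL) cortex, 3 with dexmedetomidine (Dex) and 3 with saline. All were wild-type male C57BL/6 mice aged 10 to 12 weeks conditioned with 3 tone and shock pairings at 0.7 mA. Dex was given intraperitoneally at 40 µg per kg in a volume of 10 ml per kg, and controls received normal saline in an equal volume. The tissue was collected 2 h after training and polyA RNA was sequenced. No untrained mice were among the 6 libraries, so both groups carry the training. The other 6 libraries come from infralimbic (IL) cortex with the same treatments and serve here for the difference between regions. They were also fitted together with the PL libraries, so the p-values for PL rest in part on their variation. The labels' extraction protocol names prelimbic tissue for every sample, including those titled infralimbic, and the titles were followed. Nothing in the labels says whether each sample was a mouse of its own, so the p-values below speak for the variation among these samples, which may be technical.

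Dexmedetomidine sedates by activating alpha2 adrenergic receptors, which couple to inhibitory G proteins, lower cyclic AMP and restrain noradrenaline release from the terminals of the locus coeruleus. Prelimbic cortex is the dorsal part of the medial prefrontal cortex and takes part in the expression of learned fear. The study's title places the drug's effect on fear memory in astrocytes, through Srebf1, the gene of SREBP1, a master regulator of lipid synthesis, and Phgdh, whose product opens the route from glucose to serine.

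Total counts ran from 6867249 to 8847876 in PL saline and from 6853832 to 7912150 in PL Dex. Levels are CPM (counts scaled to a common library size by the TMM method), a log2 fold change compares Dex with saline, and a gene was called when its adjusted p in edgeR's quasi-likelihood test lay under 0.05. The first principal component of the 6 libraries held 29.3% of the variance and set PL Dex libraries 1 and 2 (scores 25.8 and 52.4) apart from PL Dex library 3 (−28.3) and the saline libraries (−7.57, −20.3 and −21.98). Neuronal and astrocyte genes stood high in all 6 libraries, the summed level of 12 pan-neuronal markers running from 7167 to 9308 CPM and that of 20 astrocyte markers from 7003 to 8982 CPM. The markers do not separate prelimbic from neighbouring cortex. Markers of striatal medium spiny neurons summed to 1590 CPM in PL saline library 1 and to 733 to 1083 CPM in the other PL libraries.

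Across 20015 tested genes, 4 were called (0.02%), and all 4 fell with Dex. They were the small nucleolar RNA Gm25107, the zinc finger gene Zfp942 and the predicted transcripts Gm37602 and Gm37895. Each had an adjusted p of 0.0497 in edgeR. An unadjusted p under 0.05 was reached by 2784 genes (13.9%), 1396 higher (6.97%) and 1388 lower (6.93%) with Dex. In 2881 genes (14.4%) the 3 Dex libraries did not overlap the 3 saline libraries, 1515 higher (7.57%) and 1366 lower (6.82%).

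Zfp942, a member of the large family of zinc finger transcription factors (GRCm38 chromosome 17, 21926960 to 21962464, minus strand), stood at 43.3, 47.2 and 42.6 CPM in saline libraries 1 to 3 and at 23.5, 18.9 and 30.2 CPM in the Dex libraries. All Dex values lay below all saline values, with PL Dex library 3 nearest to them. Its log2 fold change was −0.87 (SE 0.149). Gm25107 (chromosome X, 147484293 to 147484421), which lies inside Lrch2 on the same strand, stood at 17.01, 22.1 and 19.1 CPM with saline and at 5.31, 6.24 and 10.3 CPM with Dex, a log2 fold change of −1.41 (SE 0.224). Small nucleolar RNAs guide the modification of other RNAs and mostly lack a polyA tail. Gm37602 and Gm37895 (chromosome 1, 25804097 to 25807406 and 25775757 to 25780306) both lie inside Adgrb3, a synaptic adhesion receptor gene, on its strand. Gm37602 was at 54.4, 47.3 and 38.8 CPM with saline and at 22.9, 26.0 and 27.1 CPM with Dex (log2 fold change −0.88). Gm37895 was at 73.2, 82.2 and 64.5 CPM with saline and at 41.2, 49.1 and 43.0 CPM with Dex (log2 fold change −0.72). Neither overlapped between the groups, whereas their host Adgrb3 had a log2 fold change of −0.13 (SE 0.112) with overlapping groups. Counting does not tell RNA of these 3 transcripts from unspliced RNA of their hosts.

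The 4 calls lay at the edge of the threshold, in a fit of all 12 libraries. An edgeR fit of the PL libraries only called 0 genes. With the batch number of the labels as a block, edgeR called Gm25107 (adjusted p 0.0438), Gm37602 (0.0452) and, as a gene higher with Dex, Sh2d3c (0.0438), while Zfp942 and Gm37895 had an adjusted p of 0.0619. DESeq2 called 123 genes (0.615%), 48 higher (0.24%) and 75 lower (0.375%), all 4 among them. Without PL Dex library 3, edgeR called 1528 genes (7.63%), 576 higher (2.88%) and 952 lower (4.76%), again with all 4 among them. With the GC correction described below that fit called 70 genes (0.35%), 9 higher (0.045%) and 61 lower (0.305%). Leaving out a single other library, infralimbic ones included, left 0 calls in 9 of these fits, 2 without PL saline library 1 and 8 without PL saline library 3.

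The size and sign of the differences followed the base composition of the transcripts. GC content here is the share of G and C in the longest annotated transcript of a gene. Across 18798 genes with at least 1 CPM, the Spearman correlation of log2 fold change with GC content was 0.562, given as a description, since genes within the same libraries are not independent. In the tenth of genes with the lowest GC content (median 38.0%) the median log2 fold change was −0.30, and 29.3% of genes had an unadjusted p under 0.05 and were lower with Dex. In the tenth with the highest GC content (median 59.2%) the median was 0.28, and 26.4% of genes were higher with Dex by that measure. In infralimbic cortex the same correlation was −0.0347.

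**Figure D1:**
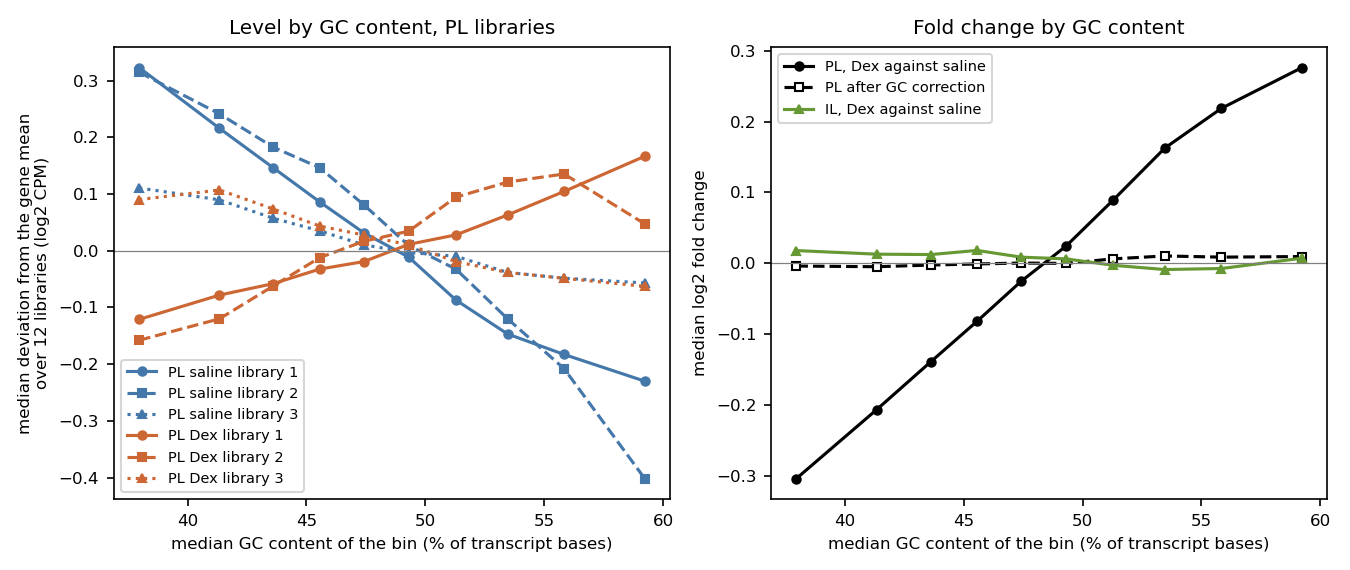
Left, median deviation of log2 CPM from the gene's mean over 12 libraries (vertical axis) against the median GC content of 10 groups of genes (horizontal axis), with 1 line for each prelimbic library. Right, median log2 fold change, Dex against saline, in the same groups for PL, for PL after the GC correction and for IL. PL saline libraries 1 and 2 slope down, PL Dex libraries 1 and 2 slope up, and the 2 libraries numbered 3 lie on each other.

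The slope of level on GC content, in log2 units for each 10 percentage points of GC, was 0.122, 0.0989 and −0.0651 in PL Dex libraries 1 to 3, whereas the saline libraries had −0.252, −0.308 and −0.0715. The Dex slopes were on average 0.262 higher (two-sided exact permutation test, p = 0.1, the smallest that 3 against 3 allows). The groups did not overlap over these genes, and library 3 of each group had nearly the same slope. Over the 10491 genes with at least 10 CPM the groups overlapped, since PL Dex library 3 (−0.107) lay below PL saline library 3 (−0.0879), and the difference was 0.278 (exact permutation test, p = 0.2). Within batches the difference was 0.374 in batch 1, 0.406 in batch 2 and 0.0064 in batch 3. What accounts for the trend was not tested, and in batches 1 and 2 the slopes and the treatment cannot be told apart.

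Most genes below are therefore given both as counted and after a correction that removed each library's smooth trend of level on GC content. A fold change given alone is as counted. With that correction edgeR called 1 gene (0.005%), Dbp, and 1187 genes (5.93%) had an unadjusted p under 0.05. Of the 2784 genes with such a p before the correction, 2708 kept their sign and 805 kept both the sign and the p. The 4 called genes had corrected log2 fold changes of −1.26 for Gm25107 (adjusted p 0.07 in edgeR), −0.57 for Zfp942 (0.535), −0.45 for Gm37602 (0.535) and −0.39 for Gm37895 (0.638). Of the 123 genes that DESeq2 called on uncorrected counts, 122 had the same sign after the correction and 100 an unadjusted p under 0.05.

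Genes of the circadian clock held the 1 call that the corrected fit made, and the median of the clock repressors lay further from 0 after the correction than before it. In the clock, the activator BMAL1 (Arntl) with its partner drives genes through the E-box. Among these are the repressors Per, Cry and Nr1d and the output factor Dbp, and Nr1d proteins in turn compete with ROR receptors at the ROR element and hold Arntl down. Dbp (chromosome 7, 45705088 to 45710203) stood at 31.9, 26.4 and 27.3 CPM with saline and at 23.4, 14.1 and 13.7 CPM with Dex. The groups did not overlap, so Dex was necessarily below saline within each of the 3 batches. Dbp fell in the corrected fit: its log2 fold change was −0.74 (SE 0.177, adjusted p 0.159 in edgeR) as counted and −1.06 (SE 0.16, adjusted p 0.0318) after the GC correction. Blocking on batch with the correction gave an adjusted p of 0.00623, and leaving out PL Dex library 3 with the correction gave 0.031. Leaving out 1 library at a time without the correction gave 0.0486 to 0.406 in edgeR. Of 19 alternative settings, 6 called Dbp. Dbp overlaps Sphk2 on the other strand, and reads of the pair cannot be told apart without strand.

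Nr1d2 (REV-ERB beta; chromosome 14, 18204054 to 18239127) was at 178, 173 and 160 CPM with saline and at 113, 103 and 129 CPM with Dex. Here too all Dex libraries lay below all saline libraries. The log2 fold change was −0.56 (SE 0.103, adjusted p 0.0734 in edgeR) and −0.38 after the correction (adjusted p 0.32). Bhlhe41 (DEC2), a repressor that competes at the E-box, was at 42.2, 38.3 and 29.3 CPM with saline and at 26.1, 23.8 and 26.8 CPM with Dex, a log2 fold change of −0.51 as counted and −0.49 corrected. In that gene the groups did not overlap, with the third saline library close to the Dex values. Arntl had a positive value, 0.30 both as counted and corrected, with 47.4, 39.9 and 47.0 CPM with saline against 49.8, 60.7 and 54.8 CPM with Dex.

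Of 10 clock repressors tested, none was called in either fit. As counted, 3 log2 fold changes were positive and the median was −0.13, beside 49.7% positive and a median of 0.00 over all genes. After the correction 2 were positive and the median was −0.23. By an unadjusted p under 0.05, 2 were higher and 2 lower as counted, against 6.97% higher and 6.93% lower over all genes. After the correction 5 were lower (Nr1d2, Bhlhe41, Ciart, Per2 and Nr1d1) and 0 higher, against 2.93% and 3.0% of all genes. Per1 and Cry2 were the repressors with a higher level, 0.42 and 0.26 as counted and 0.15 and 0.05 corrected. Within batches 1, 2 and 3 the corrected median of the repressors was −0.18, −0.17 and −0.25. As counted it was −0.02, 0.00 and −0.25. The 6 clock activators had medians of −0.07 as counted and 0.03 corrected, and the 7 output genes, Dbp among them, −0.05 and −0.08, with 3 positive in each list as counted.

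The promoter sequences of the clock genes Nr1d2 and Dbp and of the activity-induced genes Fos and Btg2 are shown because these are the clock and immediate early genes with the smallest p in their lists. Windows of 250 bases before the RefSeq start (GRCm38.p6) were searched on both strands for the E-box CACGTG, the cyclic AMP response element core TGACGT and the ROR element core AGGTCA. Capitals mark matches, and bases inside the annotated gene of the count table are left out of the printed run. Among 32851 promoter windows of that length, 6.02% hold the E-box, 6.47% the cyclic AMP core and 14.0% the ROR core. The runs are chr14:18239128-18239356 (minus strand) for Nr1d2, chr7:45704997-45705087 (plus) for Dbp, chr12:85473640-85473889 (plus) for Fos and chr1:134079156-134079405 (minus) for Btg2.
Nr1d2: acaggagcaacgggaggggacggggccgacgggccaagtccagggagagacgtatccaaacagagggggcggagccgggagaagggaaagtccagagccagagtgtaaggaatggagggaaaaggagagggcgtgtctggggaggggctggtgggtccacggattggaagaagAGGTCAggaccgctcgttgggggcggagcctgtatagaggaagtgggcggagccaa
Dbp: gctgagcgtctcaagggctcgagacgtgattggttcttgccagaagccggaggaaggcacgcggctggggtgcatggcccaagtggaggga
Fos: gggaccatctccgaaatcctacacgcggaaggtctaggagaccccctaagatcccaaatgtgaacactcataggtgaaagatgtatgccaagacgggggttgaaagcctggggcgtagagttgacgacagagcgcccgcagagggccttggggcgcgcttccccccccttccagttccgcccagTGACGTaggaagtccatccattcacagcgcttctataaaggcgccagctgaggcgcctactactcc
Btg2: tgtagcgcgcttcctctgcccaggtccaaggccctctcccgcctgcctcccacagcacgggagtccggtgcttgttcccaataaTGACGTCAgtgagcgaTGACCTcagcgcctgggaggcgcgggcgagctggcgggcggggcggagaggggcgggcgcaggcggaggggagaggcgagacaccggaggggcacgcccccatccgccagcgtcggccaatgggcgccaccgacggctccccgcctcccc
The Nr1d2 window holds 1 ROR core, at −77 to −72 from the RefSeq start. In the Fos window the cyclic AMP core stands at −66 to −61. The Btg2 window holds that core on both strands in overlapping places, −166 to −161 and −164 to −159, and a ROR core on the other strand at −150 to −145. No match of the 3 motifs was found in the Dbp window. A match describes these letters and shows no binding.

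Immediate early genes, which neuronal activity and stress hormones induce within minutes, mostly had positive values. Btg2, which encodes an antiproliferative cofactor, was at 20.6, 23.5 and 18.1 CPM with saline and at 27.1, 33.7 and 43.8 CPM with Dex. All Dex libraries were above all saline libraries, the third by the widest margin. Its log2 fold change was 0.75 (SE 0.165, adjusted p 0.156 in edgeR) and 0.71 after the correction (adjusted p 0.436). Fos, a subunit of the AP-1 transcription factor, was at 24.6, 22.5 and 24.3 CPM with saline and at 42.3, 33.4 and 32.9 CPM with Dex, again without overlap, with a log2 fold change of 0.61 (0.51 corrected). Egr2 (0.62, corrected 0.53) and Jun (0.55, corrected 0.36) had values of like size. Atf3, a stress-induced factor of very low level, was at 0.759, 0.469 and 2.78 CPM with saline and at 0.272, 0.435 and 0 CPM with Dex, so the third saline library carries much of its difference.

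Of 37 immediate early genes tested, none was called. There were 25 positive log2 fold changes with a median of 0.18 as counted, and 24 with a median of 0.05 after the correction. By an unadjusted p under 0.05, 9 were higher and 3 lower as counted, beside 6.97% and 6.93% of all genes. After the correction 4 were higher and 1 lower, beside 3.0% and 2.93%. The classic activity reporters Arc (0.28, SE 0.23), Npas4 (0.33, SE 0.23) and Egr1 (−0.09, SE 0.13) differed by less than 2 standard errors.

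**Figure D2:**
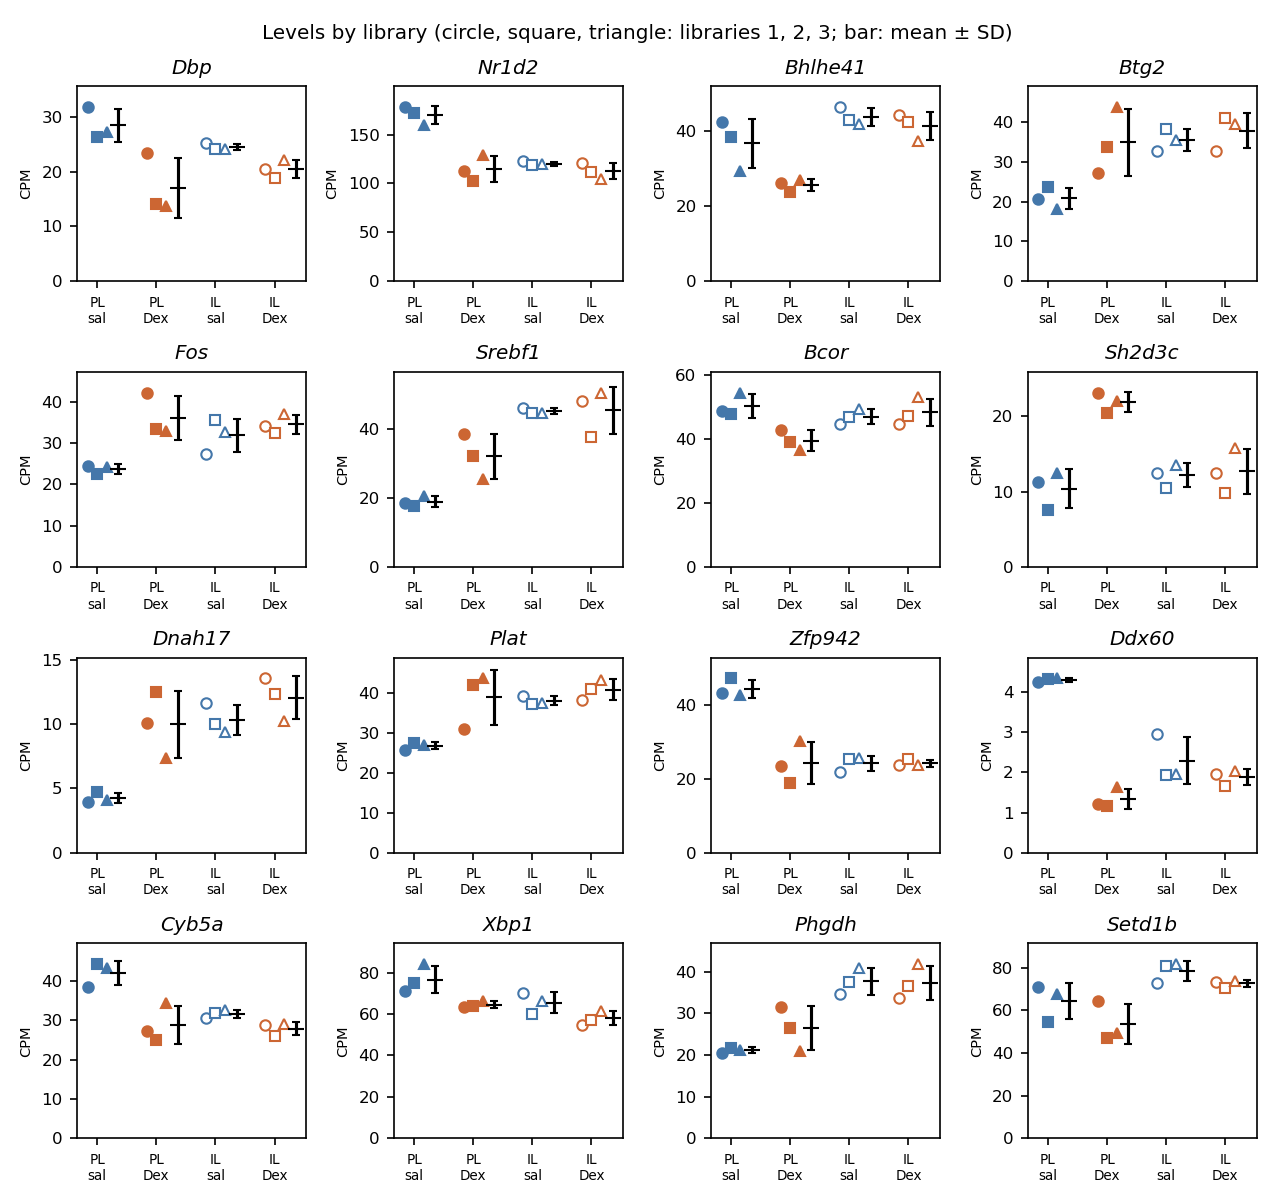
Level in CPM (vertical axis, from 0) of 16 genes in each library of PL and IL cortex, blue for saline and orange for Dex. Circles, squares and triangles are libraries 1, 2 and 3, filled for PL and open for IL, and the bar is the mean ± SD of 3. In Zfp942 and Srebf1 the PL saline libraries lie apart from all other libraries, and in Dbp the PL Dex libraries lie below the PL saline libraries.

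Among named protein-coding genes with the smallest p and a higher level with Dex, none was called. The adaptor gene Sh2d3c (chromosome 2, 32721055 to 32755512) was at 11.2, 7.496 and 12.4 CPM with saline and at 23.1, 20.5 and 21.96 CPM with Dex. All Dex libraries were above all saline libraries, and the log2 fold change was 1.08 (SE 0.205, adjusted p 0.0774 in edgeR) and 0.84 corrected (adjusted p 0.325). Sh2d3c overlaps 6330409D20Rik on the other strand. Dnah17, an axonemal dynein heavy chain gene, was at 3.95, 4.68 and 4.11 CPM with saline and at 10.1, 12.5 and 7.32 CPM with Dex (log2 fold change 1.22, corrected 1.02). Its groups did not overlap and the third Dex library was the lowest of its group. Without that library and with the correction its adjusted p was 0.0418 in edgeR. Leaving out 1 library at a time as counted gave 0.00561 to 0.3316, and 4 of 19 alternative settings called Dnah17. Rtl6, derived from a retrotransposon, was at 52.4, 48.6 and 56.0 CPM with saline and at 77.1, 81.9 and 75.2 CPM with Dex (0.58, corrected 0.34).

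Sh2b2, an adaptor of insulin and cytokine receptor signalling, stood at 3.04, 2.58 and 4.95 CPM with saline and at 7.48, 9.14 and 8.54 CPM with Dex (1.24, corrected 0.97). Dennd3, which activates a Rab GTPase, stood at 5.62, 7.73 and 10.1 CPM against 14.6, 19.6 and 14.0 CPM (1.02, corrected 0.82). Neither gene's groups overlapped. Plat, which encodes tissue plasminogen activator, had the smallest corrected p among the genes higher with Dex. It was at 25.8, 27.5 and 27.1 CPM with saline and at 31.0, 42.2 and 43.8 CPM with Dex, with a log2 fold change of 0.54 (SE 0.134) as counted and 0.61 after the correction (adjusted p 0.32 in edgeR). The saline values lay within a narrow range below all Dex values. Others higher with Dex among the 12 with the smallest p were the membrane protease gene Mmp14 (0.83, corrected 0.65), the mitochondrial immune regulator Nlrx1 (1.11, corrected 0.85), the matrix gene Emilin1 (2.17, corrected 1.89, at 0.518 ± 0.136 CPM with saline) and the focal adhesion gene Pxn (0.82, corrected 0.57).

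On the lower side, after Zfp942 and Nr1d2 came Zfp397, another zinc finger gene, at 80.8, 81.2 and 75.3 CPM with saline and at 57.8, 50.5 and 56.2 CPM with Dex (log2 fold change −0.53, SE 0.103, adjusted p 0.0947 in edgeR). After the correction its value was −0.28. Fam204a was at 33.9, 24.1 and 29.8 CPM against 15.0, 15.8 and 18.0 CPM (−0.84, corrected −0.63). Ddx60, an interferon-induced helicase gene, was at 4.25, 4.33 and 4.35 CPM with saline and at 1.22, 1.16 and 1.63 CPM with Dex (−1.68, SE 0.341, corrected −1.45). Zfp40 was at 43.3, 48.8 and 40.8 CPM against 23.5, 22.1 and 33.6 CPM (−0.75, corrected −0.45). In these 4 genes no Dex library reached a saline library. Ccl28 (−1.19), Phip (−0.47), Clec2d (−1.41), Ppp4r3b (−0.51), Cox16 (−0.94) and Rock1 (−0.48) completed the 12 genes with the smallest p, and their corrected values ran from −1.32 for Clec2d to −0.20 for Phip.

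The correction brought other genes to the head of the lower side. Setd1b, a histone H3 lysine 4 methyltransferase gene, was at 70.8, 54.7 and 67.4 CPM with saline and at 64.3, 47.0 and 49.3 CPM with Dex. These groups overlapped as counted, with a log2 fold change of −0.26 (SE 0.128), and the corrected value was −0.53 (SE 0.11, adjusted p 0.32 in edgeR). Bcor, a corepressor gene, was at 48.7, 47.9 and 54.6 CPM against 43.0, 39.0 and 36.6 CPM (−0.35, corrected −0.49) without overlap. Cyb5a, an electron carrier of fatty acid desaturation and sterol synthesis, was at 38.4, 44.3 and 43.4 CPM with saline and at 27.4, 25.0 and 34.3 CPM with Dex (−0.54, corrected −0.59). Eif1b (−0.41, corrected −0.57) and Sfpq (−0.37, corrected −0.41), a paraspeckle and splicing protein gene, followed.

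Zinc finger genes had a negative median as a class. Of 329 tested protein-coding genes named Zfp and a number, 67 were lower (20.4%) and 9 higher (2.74%) by an unadjusted p under 0.05, beside 6.79% and 8.96% of all protein-coding genes, and the median log2 fold change was −0.15. After the correction 417 of the 14278 protein-coding genes were lower and 452 higher. Of the 329 Zfp genes 17 were then lower and 10 higher, beside 2.93% and 3.0% of genes of all classes, and the median was −0.07. Their median GC content was 44.8%, beside 49.8% for all 14278 protein-coding genes, whose median log2 fold change was 0.02. The class TEC of the annotation, transcripts not yet verified, held 1719 tested genes with a median of −0.17 as counted and 0.05 corrected, and 115 small nucleolar RNAs had medians of −0.29 and −0.14.

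Srebf1 was among the 12 genes with the smallest p on the higher side. It stood at 18.5, 17.6 and 20.5 CPM with saline and at 38.5, 32.1 and 25.4 CPM with Dex. The groups did not overlap, and the difference within batches was widest in batch 1 and narrowest in batch 3. Its log2 fold change was 0.76 (SE 0.155, adjusted p 0.108 in edgeR) as counted and 0.49 (SE 0.13, adjusted p 0.535) after the correction. Without PL Dex library 3 the adjusted p in edgeR was 0.00532 as counted and 0.0568 corrected. That uncorrected fit called 7.63% of all genes. Leaving out 1 library at a time gave 0.00532 to 0.5355 as counted, and 3 of 19 alternative settings called Srebf1. Its infralimbic means were 45.1 ± 0.912 CPM (saline) and 45.35 ± 6.77 CPM (Dex; SD, n = 3), above both PL means. Srebf1 overlaps Rai1 on the other strand. Srebf1 and Phgdh are named in the study's title, and whether they were chosen on these samples is not given in the sources used here.

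Of the other regulators, Srebf2, which drives sterol synthesis (198, 184 and 221 CPM with saline, 285, 289 and 230 CPM with Dex), and Scap, the escort of both SREBPs (47.5, 48.0 and 55.1 CPM against 70.6, 69.5 and 60.3 CPM), both had a log2 fold change of 0.41. Neither overlapped between groups, and their corrected values were 0.16 and 0.14. Of the 9 SREBP and LXR regulators tested, 7 were positive as counted (median 0.30) and 8 corrected (median 0.13). By an unadjusted p under 0.05, 3 were higher as counted and 2 corrected, beside 6.97% and 3.0% of all genes, and none was lower. Within batches the median was 0.33, 0.38 and 0.13.

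The enzymes and carriers below these factors had values of both signs. Among 22 genes of fatty acid synthesis, 16 were positive with a median of 0.16 as counted and 16 with a median of 0.08 corrected. By an unadjusted p under 0.05, 7 were higher and 1 lower as counted, beside 6.97% and 6.93% of all genes. After the correction 4 were higher and 1 lower, beside 3.0% and 2.93%. Fasn, fatty acid synthase, was at 269, 244 and 325 CPM with saline and at 394, 384 and 302 CPM with Dex, so its groups overlapped through library 3 (0.36, corrected 0.11). Acacb, which makes malonyl-CoA at mitochondria, had 0.90 (corrected 0.66), and Elovl6, which elongates fatty acids, had −0.34 (corrected −0.22). Acss2, which makes acetyl-CoA from acetate, had 0.29 (corrected 0.31).

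Among 23 genes of cholesterol synthesis and uptake, 14 were positive (median 0.05) as counted and 11 corrected (median −0.02). By an unadjusted p under 0.05, 4 were higher and 2 lower as counted, beside 6.97% and 6.93% of all genes. After the correction 2 were higher and 0 lower, beside 3.0% and 2.93%. The enzymes Hmgcs1 (−0.27, corrected −0.12) and Msmo1 (−0.29, corrected −0.19) had negative values. Among 13 genes of cholesterol transport and efflux, 11 were positive as counted (median 0.22) and 10 corrected (median 0.10), with Abca1, the efflux transporter of astrocytes, at 0.32 (corrected 0.34) and Lrp1 at 0.39 (corrected 0.14). No gene of these lists was called.

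Phgdh stood at 20.4, 21.8 and 21.1 CPM with saline and at 31.6, 26.6 and 21.0 CPM with Dex. The groups overlapped, since PL Dex library 3 lay among the saline values. The log2 fold change was 0.32 (SE 0.151, adjusted p 0.35 in edgeR) and 0.07 after the correction. The next enzymes of the serine branch, Psat1 and Psph, had 0.06 and 0.43 (SE 0.12 and 0.22). Cbs, which joins serine and homocysteine, was at 17.2, 17.4 and 19.0 CPM with saline and at 23.5, 31.8 and 21.3 CPM with Dex, without overlap (0.51, corrected 0.47). Of 21 serine and one-carbon genes, 13 were positive both as counted (median 0.08) and corrected (median 0.07).

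**Figure D3:**
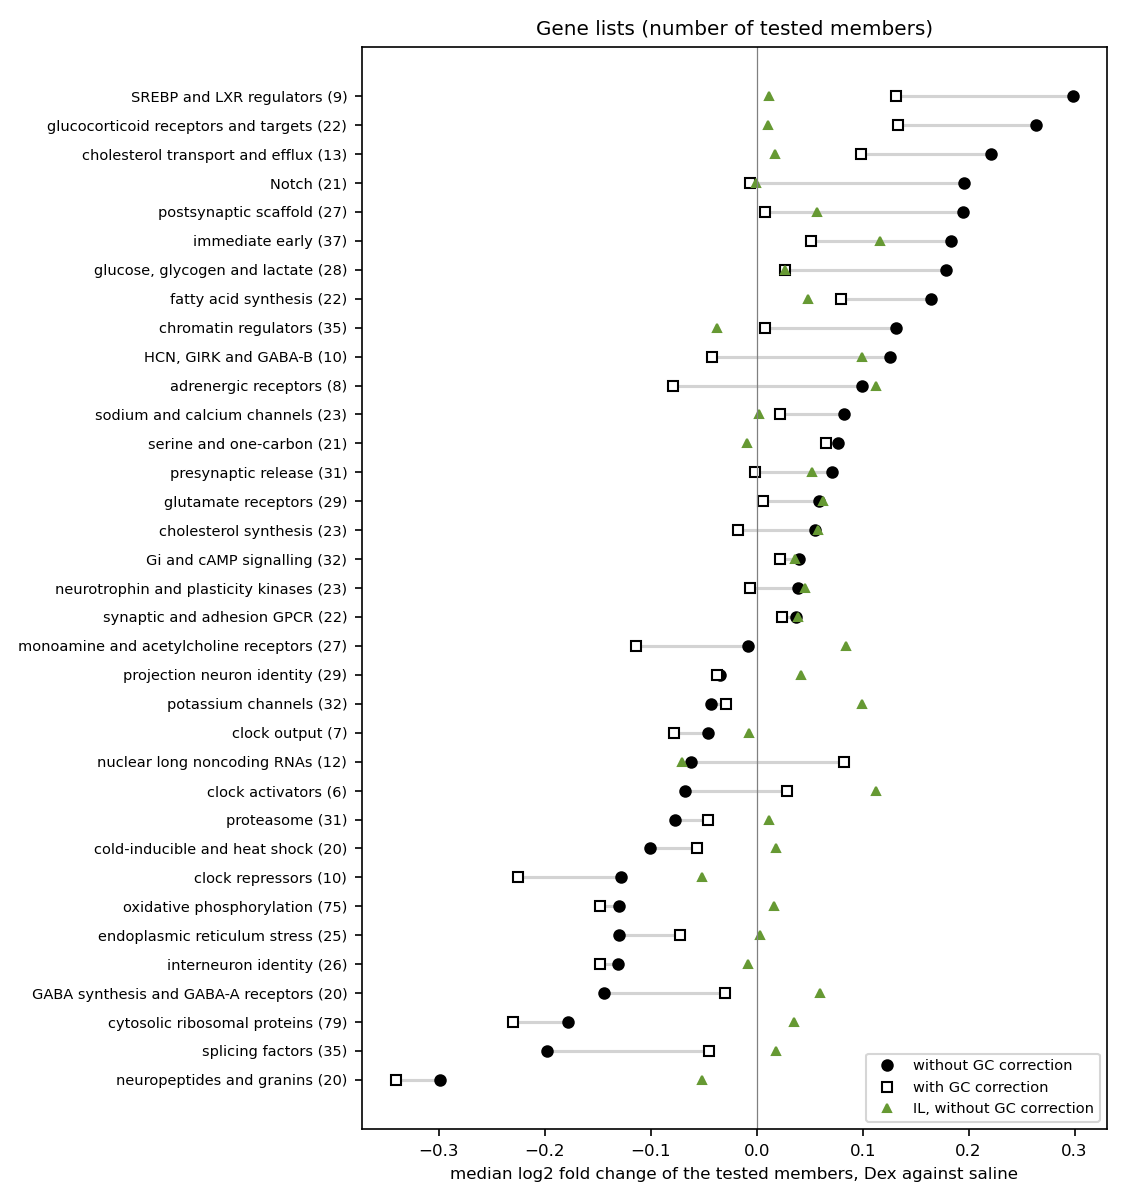
Median log2 fold change (horizontal axis) of the tested members of 35 gene lists, with their number in brackets, for PL as counted (filled circles), PL with the GC correction (open squares) and IL as counted (triangles). The squares lie nearer to 0 than the circles for lists such as Notch and splicing factors and further from 0 for clock repressors.

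Genes of the drug's own targets were measured with wide error. Adra2a, the alpha2A receptor gene, was at 15.2, 9.96 and 11.9 CPM with saline and at 13.9, 11.3 and 15.4 CPM with Dex, with overlapping groups and a log2 fold change of 0.14 (SE 0.26), which was −0.11 after the correction. Adra2c was at 14.6, 5.04 and 9.78 CPM against 14.7, 12.3 and 14.2 CPM (0.51, corrected 0.21). Adra2b had 3 counts over the 6 libraries and was not tested. Of 8 adrenergic receptor genes, none had an unadjusted p under 0.05 in either fit, beside 13.9% of all genes as counted and 5.93% corrected. Among 32 genes of inhibitory G protein and cyclic AMP signalling, 19 were positive as counted (median 0.04) and 18 corrected (median 0.02). By an unadjusted p under 0.05, 4 were higher and 3 lower as counted, beside 6.97% and 6.93% of all genes. After the correction 0 were higher and 1 lower, beside 3.0% and 2.93%. Creb1, which encodes the factor that binds the cyclic AMP element, was at 132, 136 and 129 CPM with saline and at 99.3, 85.9 and 124 CPM with Dex (−0.36, corrected −0.12).

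Of the channels that the receptors act on, the GIRK channel gene Kcnj3 had −0.21 (corrected −0.08), and 7 of 10 members of their list were positive as counted and 3 corrected. Among 29 glutamate receptor genes, 16 were positive (median 0.06), and the one with the smallest p, Gria2, had −0.32 as counted and 0.01 corrected. Grid1 had 0.35 (corrected 0.30). Among 20 genes of GABA synthesis and GABA-A receptors, 5 were positive (median −0.14) as counted and 7 corrected (median −0.03). Gabrg1 was at 37.2, 41.7 and 31.0 CPM with saline and at 22.2, 17.1 and 27.6 CPM with Dex, without overlap (−0.71, corrected −0.35). The adhesion gene Lrrtm4, of excitatory synapses, was at 59.1, 61.4 and 47.8 CPM against 35.6, 30.0 and 44.6 CPM (−0.61, corrected −0.32), while its list of postsynaptic scaffold genes had 19 of 27 positive (median 0.19, corrected 0.01).

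Neuropeptide genes had the most negative median of the 35 lists, −0.30 as counted and −0.34 corrected, with 5 of 20 positive in each and 4 lower by unadjusted p, beside 6.93% of all genes as counted and 2.93% corrected. Tac1 (43.0, 11.7 and 14.5 CPM with saline, 9.79, 10.7 and 9.76 CPM with Dex), Nts (3.34, 0.117 and 0.966 CPM against 0.272, 0.145 and 0 CPM) and Pdyn (31.0, 23.8 and 23.6 CPM against 19.4, 22.4 and 18.2 CPM) were highest in PL saline library 1. That library also had the highest sum of striatal medium spiny neuron markers, of which Tac1 and Pdyn are part, and of septal (495 CPM, others 338 to 396 CPM) and choroid plexus markers (12.9 CPM, others 3.66 to 6.39 CPM). The part of neighbouring tissue in these differences was not tested. Within batches the median of the list was −0.32 in batch 1, −0.11 in batch 2 and −0.04 in batch 3. In bulk tissue, fewer cells of a type and less RNA in each cell cannot be told apart.

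Of 79 cytosolic ribosomal protein genes, 13 had a positive log2 fold change, with a median of −0.18, and 11 after the correction, with a median of −0.23. None was called, and 6 were lower and 0 higher by unadjusted p, where 6.93% of all genes were lower and 6.97% higher. The median within batches was −0.12, −0.45 and 0.05, so batch 3 did not share it. Rps27a was at 29.3, 28.9 and 27.1 CPM with saline and at 16.3, 14.1 and 24.5 CPM with Dex (−0.63, corrected −0.51). Oxidative phosphorylation genes had 20 of 75 positive with a median of −0.13 (corrected −0.15), and within batches −0.05, −0.42 and 0.05. Without PL Dex library 3, edgeR called 14 ribosomal and 23 oxidative phosphorylation genes, all lower, beside 4.76% of all genes called lower in that fit.

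Splicing factor genes had 13 lower and 2 higher of 35 by unadjusted p, beside 6.93% and 6.97% of all genes, with a median of −0.20. After the correction 4 were lower and 2 higher, beside 2.93% and 3.0%, and the median was −0.04. Tra2a, an activator of exon inclusion, was at 164, 128 and 122 CPM with saline and at 85.2, 110 and 97.7 CPM with Dex, without overlap (−0.50, corrected −0.40). Ptbp1, a repressor of neuronal exons that glia express, was at 11.1, 12.9 and 13.3 CPM against 21.2, 20.6 and 15.2 CPM, also without overlap (0.61, corrected 0.45). Chromatin regulators had 24 of 35 positive (median 0.13, corrected 0.01), Notch genes 15 of 21 (median 0.20, corrected −0.01) and genes of glucose, glycogen and lactate 23 of 28 (median 0.18, corrected 0.03), with Pkm at 0.25 as counted and 0.00 corrected.

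Genes of the endoplasmic reticulum stress response had 7 of 25 positive in both fits (median −0.13, corrected −0.07). Xbp1 and Atf4, the transcription factors of its branches, had larger corrected than uncorrected values. Xbp1 was at 71.1, 74.7 and 84.0 CPM with saline and at 63.4, 63.9 and 66.4 CPM with Dex (−0.25, corrected −0.38). Atf4 was at 74.0, 74.6 and 78.7 CPM against 63.3, 65.0 and 68.8 CPM (−0.21, corrected −0.41). In both the Dex libraries lay below all saline libraries. Glucocorticoid receptor and target genes had 15 of 22 positive in both fits (median 0.26, corrected 0.13). Their within-batch medians were 0.43, 0.55 and −0.12, so the sign differed in batch 3. Klf15 had 0.55 (corrected 0.36), Fkbp5 0.35 (corrected 0.26) and Mt1, a metallothionein gene, −0.48 (corrected −0.61). Heat shock and cold-inducible genes had 8 of 20 positive (median −0.10, corrected −0.06), with Chordc1 at −0.55 (corrected −0.20), Hspd1 at −0.37 (corrected −0.32) and Hspa1a at 1.14 (corrected 0.88).

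The remaining lists were as follows. Of 32 potassium channel genes 14 were positive (median −0.04, corrected −0.03), of 23 sodium and calcium channel genes 15 (0.08, corrected 0.02), of 31 presynaptic release genes 19 (0.07, corrected 0.00), of 22 synaptic and adhesion receptor genes 12 (0.04, corrected 0.02) and of 23 neurotrophin and plasticity kinase genes 13 (0.04, corrected −0.01). Of 27 monoamine and acetylcholine receptor genes 12 were positive (−0.01, corrected −0.11), of 29 projection neuron genes 14 (−0.03, corrected −0.04) and of 26 interneuron genes 7 (−0.13, corrected −0.15). The 31 proteasome genes had 12 positive (−0.08, corrected −0.05) and the 12 nuclear long noncoding RNAs 5 (−0.06, corrected 0.08). Among the latter, Neat1, the scaffold of paraspeckles, was at 82.0, 76.1 and 68.8 CPM with saline and at 125, 138 and 77.4 CPM with Dex (0.59, corrected 0.62), with library 3 of the Dex group between the saline libraries. No gene of these lists was called.

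Cell type markers gave no called gene. Among 20 astrocyte markers 11 were positive (median 0.05, corrected 0.00), and their summed level ran from 8192 to 8951 CPM with saline and from 7003 to 8982 CPM with Dex. Within the list, Gfap, the astrocyte intermediate filament gene, was at 48.0, 47.9 and 34.4 CPM with saline and at 78.6, 59.4 and 54.2 CPM with Dex (0.56, corrected 0.35), and Fgfr3 at 56.5, 56.0 and 69.2 CPM against 87.8, 80.8 and 83.8 CPM (0.47, corrected 0.26), both without overlap. Other astrocyte markers had negative values with overlapping groups, such as Sox9 (−0.27, corrected −0.29), Slc1a3 (−0.19, corrected −0.12) and Slc1a2 (−0.15, corrected −0.06). Mature oligodendrocyte markers summed to 4031, 3021 and 3197 CPM with saline and to 5581, 2126 and 3551 CPM with Dex, so the highest and the lowest library were both Dex libraries. Microglia (9 of 16 positive, median 0.05), endothelial (7 of 14, median 0.00), mural and meningeal (10 of 15, median 0.33), ependymal (8 of 14, median 0.20), oligodendrocyte precursor (8 of 9, median 0.14) and pan-neuronal markers (5 of 12, median −0.02) had overlapping sums in the 2 groups. Erythroid (2 of 6, median −0.22), choroid plexus (1 of 5, median −1.27), striatal (3 of 18, median −0.37) and septal markers (5 of 12, median −0.14) also overlapped in their sums. Corrected medians were −0.04 for microglia, 0.04 for endothelial, 0.16 for mural and meningeal and 0.14 for ependymal markers. They were 0.05 for oligodendrocyte precursor, −0.07 for pan-neuronal, −0.31 for erythroid, −1.23 for choroid plexus, −0.365 for striatal and −0.06 for septal markers.

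**Figure D4:**
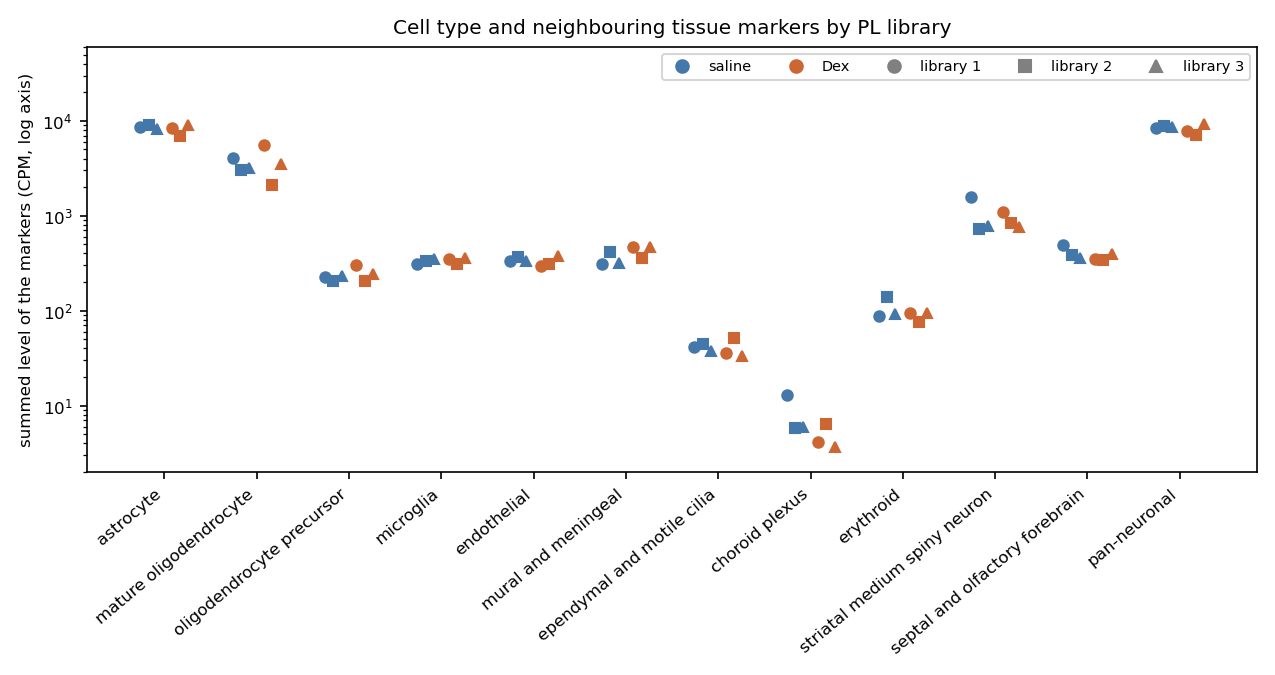
Summed level in CPM (vertical axis, log scale) of the markers of 12 cell types or neighbouring tissues in each prelimbic library, blue for saline and orange for Dex, with circles, squares and triangles for libraries 1, 2 and 3. The sums of the 2 groups overlap in all 12 lists, and PL saline library 1 stands highest for striatal and choroid plexus markers.

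In infralimbic cortex the same drug gave 0 called genes (0.0%) in edgeR and 213 with an unadjusted p under 0.05 (1.06%), and DESeq2 called 0, with 181 at that p. The 2 comparisons share no library. The test of the difference between the regional effects called 0 genes (0.0%) in edgeR and in DESeq2, with 1347 at an unadjusted p under 0.05 (6.73%) in edgeR, 1232 in DESeq2 and 587 in edgeR after the GC correction. Without PL Dex library 3, edgeR called 169 genes for the difference, 39 higher and 130 lower, and with the GC correction in that fit 0. Without the filter on low counts, where 38950 genes were tested, edgeR called 4 genes for the difference and 3 for Dex in infralimbic cortex. By unadjusted p in the main fit, the first on the side of PL were Lrrc47 (PL 0.56, IL −0.45), Smg9 (0.57 and −0.24) and Notch1 (0.50 and −0.20). On the other side were Zfp942 (−0.87 and 0.00), Arl5b (−0.30 and 0.29) and Zfp943 (−0.64 and 0.25). Each had an adjusted p of 0.716 in edgeR, and these values are as counted, without the GC correction.

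The levels of the genes ranked first by p were also set beside those of the infralimbic libraries. The 24 named genes with the smallest p, 12 in each direction, were picked on the same PL values. In 20 of them all 3 PL saline libraries lay outside the range of the other 9 libraries. In 5 all 3 PL Dex libraries did. This count was chosen after the values were seen. Its share over all genes is not given here, so no conclusion is drawn from it. In PL saline Zfp942 averaged 44.4 ± 2.47 CPM, in PL Dex 24.2 ± 5.71 CPM, beside 24.2 ± 2.04 CPM in IL saline and 24.2 ± 0.96 CPM in IL Dex (SD, n = 3). Sh2d3c was among the exceptions, with 10.4 ± 2.58, 21.9 ± 1.33, 12.2 ± 1.59 and 12.7 ± 3.01 CPM in that order. The GC slopes of the IL libraries, −0.0084 to 0.19, lay nearer to those of PL Dex libraries 1 and 2 than to those of PL saline libraries 1 and 2, and their part in these counts was not tested.

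**Figure D5:**
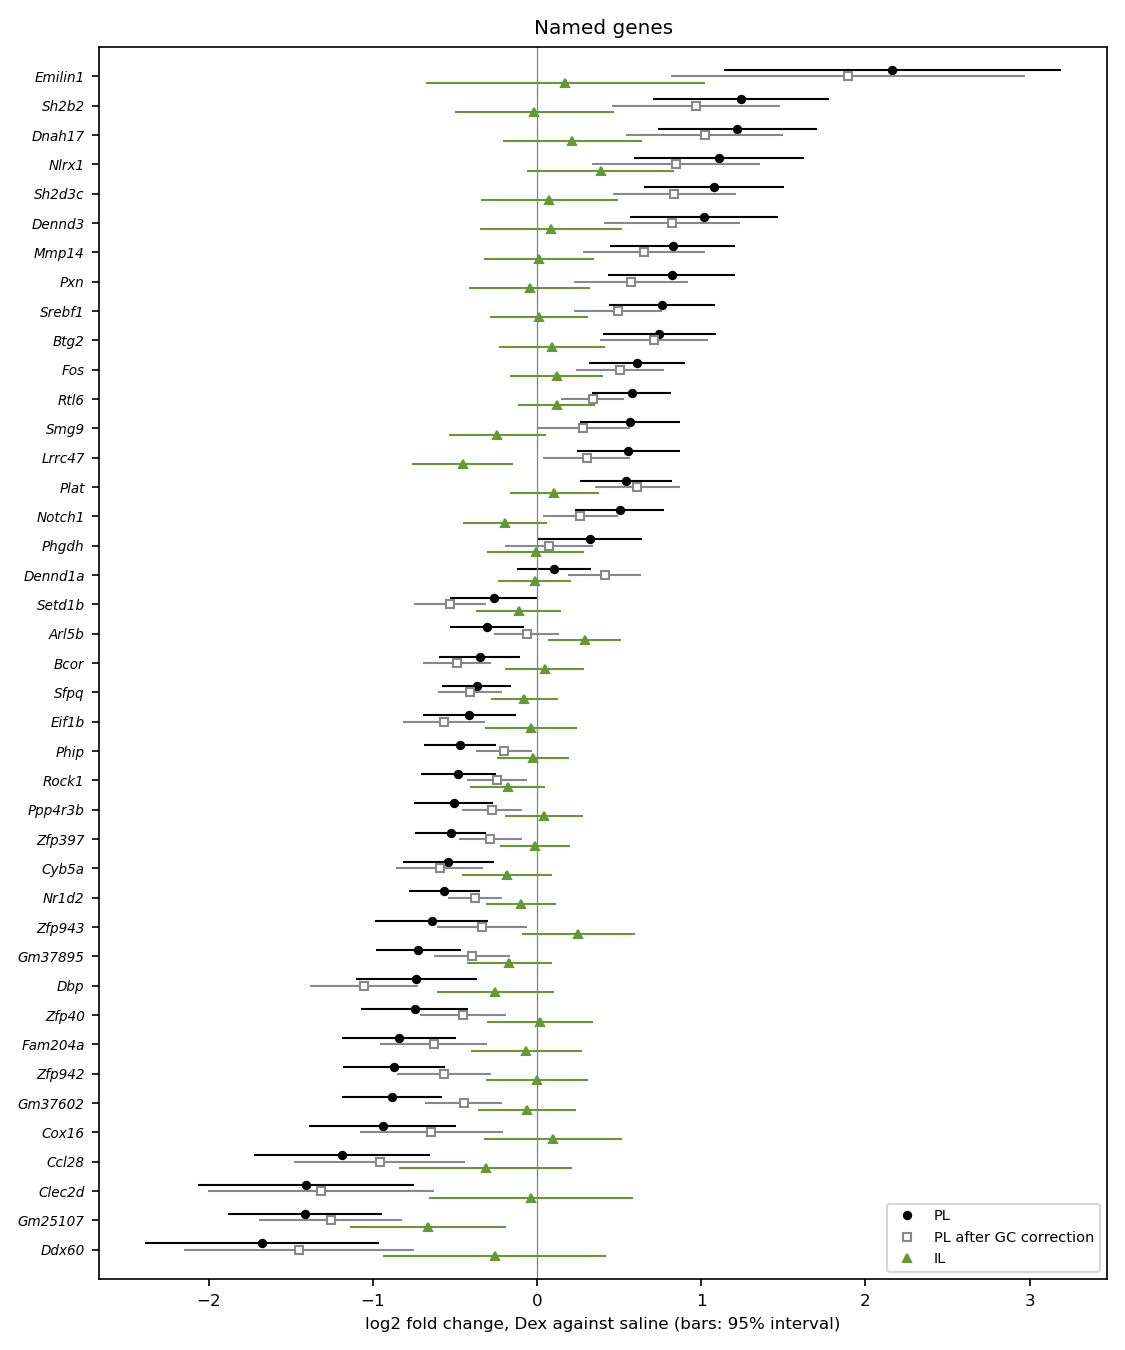
Log2 fold change, Dex against saline (horizontal axis), with its 95% interval, of 41 genes named by p or by the study's title, in PL as counted (black circles), PL after the GC correction (grey squares) and IL (green triangles). Most IL intervals include 0, and Dbp and Setd1b lie further from 0 after the correction.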

How the data were processed

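Whole-number counts of reads per gene, as the authors deposited them, are unnormalized, and library totals differ. The header of the count file shows that featureCounts 2.0.1 was run on read pairs over exons, with no strand option and a GRCm38 annotation (release 98). The submitters' processing notes list SAMtools 1.8, HISAT2, Trim Galore and bcl2fastq and give mm39 as build. Coordinates in the table equal GRCm38 for 54948 of 55240 matched genes, and that build is used here. Another 12 count columns match no sample of the labels and were not used. All 37 mitochondrial genes have 0 counts.

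Counts of the 12 labelled libraries were fitted with edgeR 4.0.16 in R 4.3.3 (TMM scaling, filterByExpr with the 4 groups, robust quasi-likelihood test, 8 residual degrees of freedom, common biological coefficient of variation 0.143), with two-sided p-values adjusted by the Benjamini-Hochberg method over 20015 genes. Recovery was checked in simulated data for this comparison at the depth of these libraries. There, 24% of 50 genes changed 1.5-fold, 48% of 50 changed 2-fold and 96% of 50 changed 4-fold were called. There were 6 false calls among 18918 genes. These rates describe the simulated data and do not give the precision of the real comparison, where leaving out a library gave 0 to 1528 calls. Recovery in the presence of the GC trend or of a deviating library was not tested. The GC correction is an offset from a lowess curve (span 0.3) of each library's log2 CPM on GC content of the longest GENCODE M21 transcript. Alternatives were DESeq2 1.42.0, no filter on low counts, a batch block, PL libraries only and leaving out each library. The batch numbers of the labels equal the sample numbers and so pair the libraries by label. The deviations of same-numbered PL libraries from their group means correlated at 0.108, 0.00858 and 0.0736.

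Named genes are all called genes, the 12 smallest p in each direction among genes with at least 1 CPM and no predicted name, the 8 after the GC correction, the 3 of the regional difference, Srebf1, Phgdh and up to 4 members of each of 35 pathway and 12 marker lists. Further list members are named with their list, and some genes that the rule names are not reported here. The members, lists and rules were chosen with earlier results of these data known. Genes that share reads with overlapping genes are uncertain.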

Additional observations from a re-analysis of the deposited data

How the results depend on the processing

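The 4 calls became 193 without the filter on low counts, in a fit that tested 38950 genes in place of 20015. They became 123 in DESeq2, 0 in an edgeR fit of the PL libraries only (1900 at an unadjusted p under 0.05), 1 with the GC correction and 2 with the replicate block and GC correction together. The block alone gave 3, and it changed the call of Zfp942, Gm37895 and Sh2d3c as given above and of no other named gene. Leaving out each library gave 0 to 1528 calls, and leaving out PL Dex library 3 with the correction 70. Calls for the regional difference were 0, with 4 without the filter and 0 to 169 when a library was left out, the 169 again without PL Dex library 3. Of 2242 alternative values of 118 named genes, 2019 kept their direction and their side of the threshold, 156 were newly called, 56 lost a call and 11 changed sign. The GC correction, alone, with the block and, for the last of 3 values, without PL Dex library 3, turned Adra2a to −0.11, −0.121 and −0.279, Pkm to −0.00141, −0.00244 and −0.0302 and Gria2 to 0.00569 and 0.00415. Nr1d1 reached 0.0284 to 0.0342 when PL Dex 1, PL Dex 3 or PL saline 3 (0.033) was left out. The medians of 8 pathway lists and 2 marker lists changed sign with the GC correction. The GC slope difference was 0.214 to 0.332 when a PL library was left out and 0.278 over genes with at least 10 CPM, where the groups overlapped (exact permutation p = 0.2). The causes of these changes were not tested.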
